A study of Rattus norvegicus with 3 samples.

Results

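Messenger RNA was compared between ventricular myocytes from newborn rats cultured for 48 h with 1 µM PAMH and the same kind of culture without stimulus. The comparison takes in every non-control probe set of the PAMH array and the unstimulated array, 15866 of the 15923 on each array, chosen by array title and by identifier and not by any measured value. Those with 1 gene symbol stood for 10411 genes. Each group was 1 array, so there were no replicates: the values below are ratios between single arrays, with no standard error and no p-value, and variation between cultures was not measured. The other array of the series came from myocytes kept for 48 h with 20 µM phenylephrine, and its signals are given beside some results. The labels give no strain, no medium and no vehicle, and do not say whether a culture pooled several animals.

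PAMH stands for pyridine activator of myocyte hypertrophy, a small molecule that acts on serotonin receptors of the Htr2 class. These receptors couple to the G protein Gq, which activates phospholipase C, releases calcium from internal stores and switches on protein kinase C. In cardiac myocytes the calcium signal activates calcineurin, a phosphatase that sends NFAT factors to the nucleus, and kinases that free MEF2 factors from class II histone deacetylases. The growing myocyte then expresses fetal genes such as the natriuretic peptides. Rcan1, an inhibitor of calcineurin, is itself a calcineurin target and is often read as a measure of calcineurin activity.

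Markers of the labelled cell type were present. All 10 cardiomyocyte markers lay above the floor, the intensity of 76.0 below which no ratio was computed, and Myh6, the α myosin heavy chain, read 10978 on the unstimulated and 13489 on the PAMH array. Fibroblast and smooth muscle genes were also present, with 9 of 11 and all 7 measured on both arrays. No endothelial marker was measured on both arrays (0 of 7 present on the array), nor any Schwann cell or neuron marker (0 of 4), and of 9 macrophage and leukocyte markers only Aif1 and Cd74 were. Arrays were multiplied by 1 factor each to equal medians, 0.937 for the unstimulated and 1.04 for the PAMH array. Control probe sets at the 3′ and 5′ ends had a ratio of 1.72 and 1.54 for actin and of 1.04 and 1.01 for Gapdh, in that order of arrays.

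Most genes differed little between the arrays. Of the 10411 genes, 6549 lay above the floor on both arrays and had a ratio, 352 lay above it with PAMH alone, 374 on the unstimulated array alone and 3136 on neither. Among those with a ratio, 5666 (86.5%) differed by less than 1.5-fold, and percentiles 25 and 75 of the log2 ratio were -0.14 and 0.33. With PAMH 134 genes (2.05%) lay 2-fold or more above their unstimulated signal and 52 (0.794%) as far below it. At 1.5-fold these numbers were 610 (9.31%) and 273 (4.17%), and they are the background against which the members of each gene list below are read. For list counts after cyclic loess normalization the background was 413 higher and 363 lower of 6557 genes. The lists were chosen with earlier results of these data known, so their counts are descriptions and test nothing. Far ratios were few: 26 genes were past 3-fold higher and 9 past 3-fold lower. The median log2 ratio of all measured genes was 0.10, but it was larger for bright genes, at 0.02 in the dimmest of equal-sized signal classes and 0.31 in the brightest, so small positive ratios of bright genes depend on how the arrays are scaled. With a median above 0, more of all measured genes had a ratio above 0 than below it. Of 29 genes past 2-fold with a further measured probe set, 24 had every such probe set on the same side and 19 had every one past 1.5-fold. The exceptions on side were Cop1, Hsd17b7, Myh1, Ntn1 and Pdlim7. Among genes named below, Cdc20, Ctsc, Dnajb1, Fbn1, Fdft1, Slc2a4 and Trdn had a further measured probe set on the same side but under 1.5-fold, and so did 1 of the further probe sets of Scd2.

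**Figure D1:**
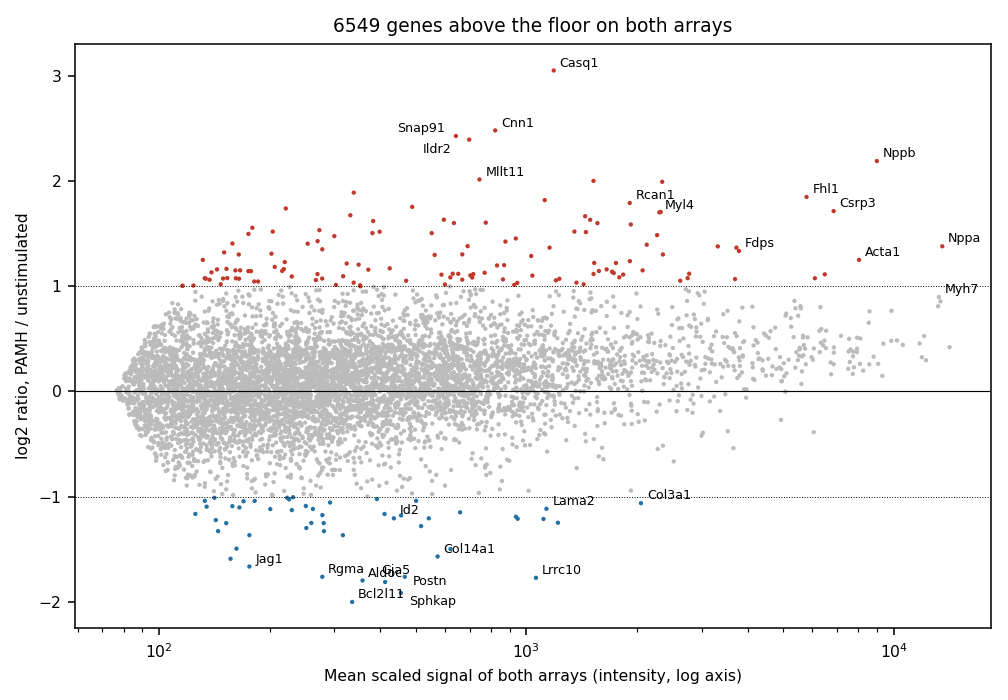
Each point is 1 of 6549 genes, with the mean scaled signal of the PAMH and unstimulated arrays (intensity, log axis) across and the log2 ratio of PAMH over unstimulated up. Dotted lines mark 2-fold, red points (134) lie above it and blue points (52) below. The cloud leans upward at high signal, and Nppb, Nppa, Csrp3, Fhl1 and Acta1 stand above it at the bright end.

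Fetal and stress genes of the myocyte were higher with PAMH. Of 16 list members on the array, 15 were measured on both arrays. Of these 13 were 1.5-fold or more above their unstimulated signal and none as far below. Their median log2 ratio was 1.02 against 0.10 for all measured genes. After cyclic loess normalization 10 of the 15 were past 1.5-fold higher and the median was 0.85. Nppb, which encodes B-type natriuretic peptide, had a signal of 3227 on the unstimulated, 14755 on the PAMH and 12872 on the phenylephrine array, a ratio of 4.57 for PAMH. Nppa, which encodes atrial natriuretic peptide, read 7516, 19589 and 16987 in the same order. Both treated arrays were far above the unstimulated one for these secreted hormones, and 19589 was the brightest PAMH signal of any probe set. Acta1, the skeletal α-actin of the fetal heart, read 4755 without stimulus and 11328 with PAMH, a ratio of 2.38. After cyclic loess the log2 ratio was 1.72 for Nppb, and 0.85 for Nppa and 0.78 for Acta1, both under 2-fold. Myh3, a myosin heavy chain of the embryo, gave 26.6 without stimulus, under the floor, and read 846 with PAMH, at least 11.1-fold higher when set against the floor. It was 1 of only 3 genes known by a bound, beside LOC102553868, at least 4.10-fold higher, and Dhrs7c.

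The regulatory sequence of 3 of these genes is shown because they were higher together and belong to the textbook targets of hypertrophic signals. The lines give the 250 bases before the transcription start from RefSeq (build GRCr8), 5′ to 3′ on the gene's strand, and capitals mark matches on either strand to the M-CAT element bound by TEAD factors (CATTCC), the GATA element (AGATAA) and the CArG box of serum response factor.
Acta1 (chr19:68784195-68784444, minus strand): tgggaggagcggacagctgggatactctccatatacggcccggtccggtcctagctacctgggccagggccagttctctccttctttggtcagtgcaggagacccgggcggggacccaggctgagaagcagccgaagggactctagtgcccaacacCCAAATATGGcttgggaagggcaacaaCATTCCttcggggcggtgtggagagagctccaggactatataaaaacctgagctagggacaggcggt
Nppb (chr5:163699758-163700007, plus strand): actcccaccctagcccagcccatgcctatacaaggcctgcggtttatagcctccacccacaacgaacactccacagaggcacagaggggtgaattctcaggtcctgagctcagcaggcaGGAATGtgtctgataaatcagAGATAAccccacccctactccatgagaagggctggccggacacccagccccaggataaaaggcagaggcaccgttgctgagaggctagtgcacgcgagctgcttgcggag
Nppa (chr5:163711934-163712183, plus strand): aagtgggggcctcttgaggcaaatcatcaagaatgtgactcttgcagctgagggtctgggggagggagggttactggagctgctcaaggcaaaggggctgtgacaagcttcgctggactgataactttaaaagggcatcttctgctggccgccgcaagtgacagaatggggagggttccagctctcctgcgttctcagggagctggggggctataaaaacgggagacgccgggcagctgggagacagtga
The Acta1 window holds a CArG box from 94 to 85 bases and an M-CAT element from 67 to 62 bases before the start. The Nppb window holds an M-CAT element on the other strand from 131 to 126 bases and a GATA element from 110 to 105 bases before it. These letters were not found in the Nppa window. Only the stated letters were searched, so a variant spelling of an element would be unmarked, and its absence from a window was not tested. Of the 13 list members past 1.5-fold, 11 had a promoter in the table. An M-CAT element occurred in 3 of them (Acta1, Ccn2 and Nppb), against 11.8% of 27457 promoters of the same length, a GATA element in 1 against 10%, and a CArG box in 2 (Acta1 and Fhl1) against 1.5%. The E-box (CANNTG), bound by basic helix-loop-helix factors, occurred in 6 of the 11 against 65.2%.

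The other members of the fetal and stress list were of several kinds. Rcan1 read 855 without stimulus, 2965 with PAMH and 2339 with phenylephrine, so that PAMH gave its highest signal. Fhl1, a LIM protein of the sarcomere that binds titin, went from 2512 to 9062, and its other probe set from 1097 to 7310, a log2 ratio of 2.74. Csrp3, the muscle LIM protein of the Z-disc, went from 3199 to 10516. Xirp1, a repeat protein of the intercalated disc, was 1.94-fold higher, and Spp1, the secreted matrix protein osteopontin, 1.95-fold. Ankrd1, a titin-binding repeat protein, read 9524 and 17258, 1.81-fold, and the growth factor gene Ccn2 4044 and 7099, 1.76-fold. For these bright genes the ratio was smaller after cyclic loess normalization, with log2 values of 0.33 for Ankrd1 and 0.38 for Ccn2. Gdf15, a stress-induced cytokine, went from 97.2, near the floor, to 197 with PAMH and 317 with phenylephrine. The members under 1.5-fold were the slow troponin I gene Tnni1 (log2 ratio 0.26) and the protease inhibitor gene Timp1 (0.34).

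The receptors that PAMH is known to act on gave little signal on either array. Of 11 serotonin receptor genes on the array, 4 were measured on both arrays, none past 1.5-fold. Htr2a read 97.2 without stimulus and 120.0 with PAMH, a log2 ratio of 0.30, while Htr2b read 26.9 and 37.4 and Htr2c 70.4 and 72.7, all below the floor. Htr1b went from 97.1 to 139. Maoa, the mitochondrial oxidase that breaks serotonin down, was bright and even, at 509.7 and 522. The serotonin transporter gene Slc6a4 lay below the floor without stimulus (59.0) and close above it with PAMH (84.5). Of the adrenergic receptors only Adra1b, the α1B receptor, was measured, at 395 without stimulus, 166 with PAMH and 121 with phenylephrine, a PAMH ratio of 2.38-fold lower. Both treated arrays were below the unstimulated one for this gene.

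Components that carry the Gq signal were close to their unstimulated level. Of 35 genes of the Gq and phospholipase C list, 19 were measured, with a median log2 ratio of 0.00, and 1 was past 1.5-fold: Grk5, a kinase that desensitizes receptors, at 163 and 250.3. Prkca, protein kinase C α, had a log2 ratio of 0.55 and Prkcd, its δ form, 0.00. Rgs2, which shortens Gq signals, read 316 without stimulus, 243 with PAMH and 603 with phenylephrine. PAMH thus gave the lowest Rgs2 signal of the 3 arrays and phenylephrine the highest. Of 13 measured MAP kinase and feedback genes, Map2k3, a kinase upstream of p38, was 1.82-fold higher and the phosphatase gene Dusp5 1.51-fold lower, the latter with a PAMH signal near the floor (145 and 96.0). Among 13 measured genes of the immediate early list, which holds AP-1 and Klf factors and other early response genes, 1 was higher and 1 lower at 48 h. The early response gene Ier3 was 1.84-fold higher and the factor gene Klf10 1.54-fold lower.

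The calcineurin list separated its feedback gene from its enzyme. Of 17 measured members 3 were higher by 1.5-fold or more, and none lower, all 3 among the regulators: Rcan1, Myoz2, the Z-disc protein calsarcin that binds calcineurin, at 3920.1 and 8274, and Fkbp1a, the target of the calcineurin inhibitor FK506, at 1943 and 3531. The catalytic subunits Ppp3ca (726 and 688) and Ppp3cb (460.1 and 559) stayed within 1.5-fold. So did the regulatory subunit Ppp3r1, whose log2 ratio was -0.42, although 1 of the 3 measured subunits was past 1.5-fold lower after cyclic loess. The NFAT genes Nfatc3 (-0.28), Nfatc4 (-0.10) and Nfat5 (0.17) lay near 0, and the paralogue Rcan2 had 0.06. Fkbp1a fell short of 1.5-fold after cyclic loess normalization, at 0.52 on the log2 scale.

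Of 23 measured genes of MEF2 factors, partners, deacetylases and CaM kinases, 4 were higher by 1.5-fold or more, and none lower. The homeobox factor gene Nkx2-5, which marks the cardiac lineage, went from 446 to 797. The deacetylase gene Hdac6 went from 163 to 307. Hopx, a homeodomain protein that restrains serum response factor, read 501 without stimulus, 752 with PAMH and 352 with phenylephrine, so the treated arrays lay on opposite sides of the unstimulated one. Its PAMH ratio, a log2 value of 0.59, was just past 1.5-fold and was below it under 5 of 9 processing alternatives. Mef2d was 1.52-fold higher by its brightest probe set, but a second one gave -0.13 on the log2 scale. The class II deacetylase gene Hdac5 had 0.40 and the kinase gene Camk2d, at 1546 and 1422, -0.12.

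**Figure D2:**
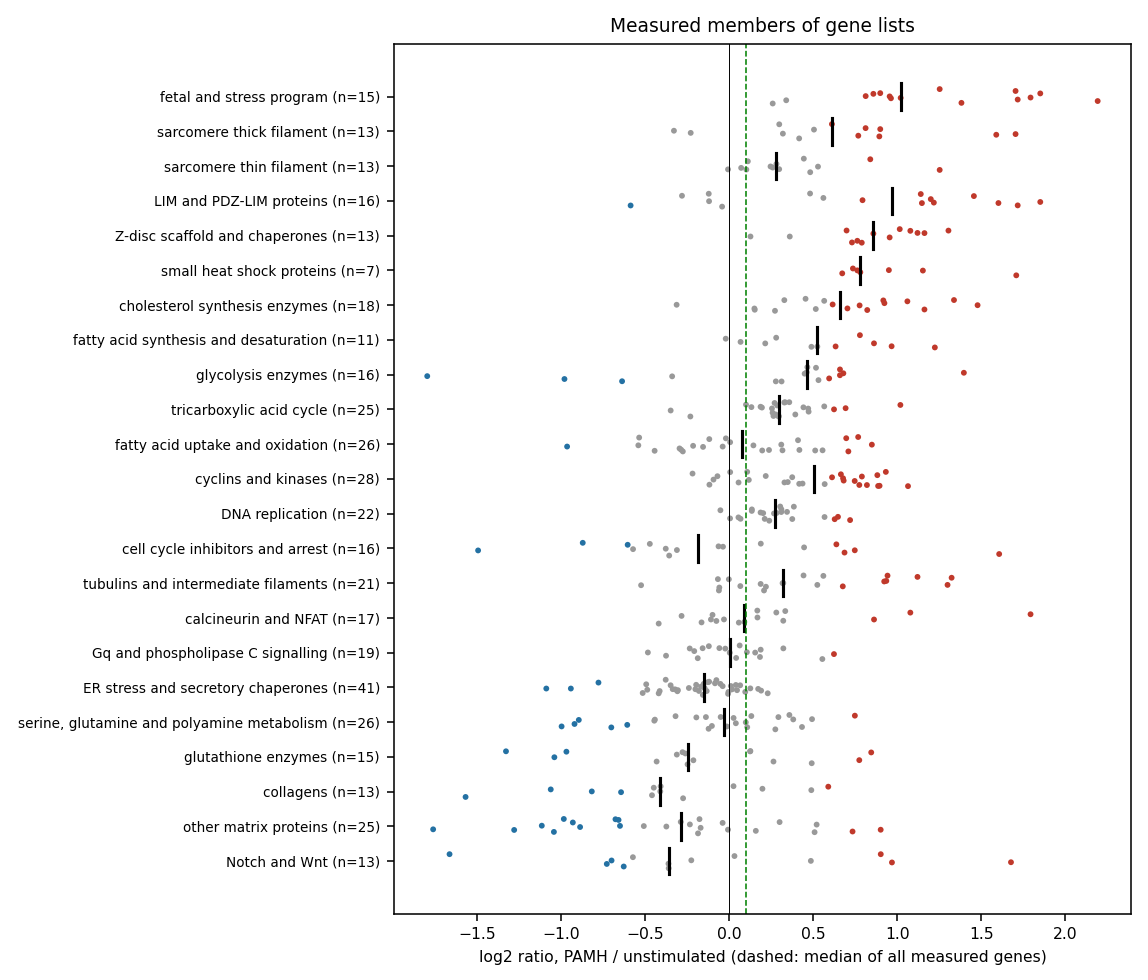
Points are the measured members of 23 gene lists or parts of lists, placed by log2 ratio of PAMH over unstimulated. Red points are at least 1.5-fold higher, blue points at least 1.5-fold lower, black bars are list medians and the dashed line is the median of all measured genes (0.10). Fetal, LIM and Z-disc genes lie furthest right, and collagens, other matrix proteins and Notch and Wnt genes furthest left.

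Beyond these lists, the genes furthest above their unstimulated level were taken from those whose mean over both arrays passed 162, percentile 60 of all probe sets. Casq1 led, which encodes skeletal muscle calsequestrin, a calcium buffer, with 255 on the unstimulated, 2118 on the PAMH and 3478 on the phenylephrine array, 8.31-fold higher with PAMH. Cnn1, the smooth muscle actin-binding protein calponin, read 249, 1395 and 1793 in that order. Snap91, a clathrin adaptor gene best known from synapses, read 201, 1084 and 1177, with its other probe set below the floor. Ildr2, an immunoglobulin-like domain gene, read 223, 1174 and 1150.2. For all 4 genes both treated arrays lay above the unstimulated one, at least 5-fold with PAMH, and these ratios stayed past 4-fold under each of the 9 alternatives that gave a value.

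Further genes of the highest 30 were of mixed function. Mllt11 was 4.05-fold higher, Enah, which extends actin filaments at focal contacts, 4.01-fold, and Akip1, which binds protein kinase A, 3.99-fold. Akip1 had 3 further probe sets above the floor with log2 ratios from 2.03 to 2.22. Ckb, the brain isoform of creatine kinase, went from 144 to 534. Tnfrsf12a, the receptor of the cytokine TWEAK, went from 495 to 1748, and the lactate exporter gene Slc16a3 from 223 to 754. With phenylephrine Tnfrsf12a read 2366 and Slc16a3 1114, above PAMH in both. Tgm2, a protein crosslinking enzyme, was 3.10-fold higher, with a second probe set at 1.45 on the log2 scale.

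Others of the highest 30 included S1pr1, a receptor for sphingosine phosphate (698 and 2003), Fzd2, a Wnt receptor (158 and 505), and Gadd45g of the growth arrest family (383 and 1166). Pa2g4, a growth-regulated RNA-binding protein, read 188 without stimulus, 578 with PAMH and 383 with phenylephrine. Ift43, a subunit of ciliary transport, read 692, 2198 and 1634 in that order. For these last 2 genes the PAMH array was the highest of the 3. Mxra7, Adprhl1, Ccdc107, Aif1l, Vsig10 and Plbd1 lay between 2.87-fold and 3.34-fold higher, of which Mxra7 (102), Plbd1 (105) and Aif1l (91.0) started near the floor. Myh1, a fast skeletal myosin heavy chain, was 3.01-fold higher by its brightest probe set, but its 4 others had log2 ratios from -0.58 to 0.20, and after quantile normalization another probe set was the brightest and gave -0.63, so its direction was not settled. Myosin heavy chain genes are near-identical over long stretches.

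**Figure D3:**
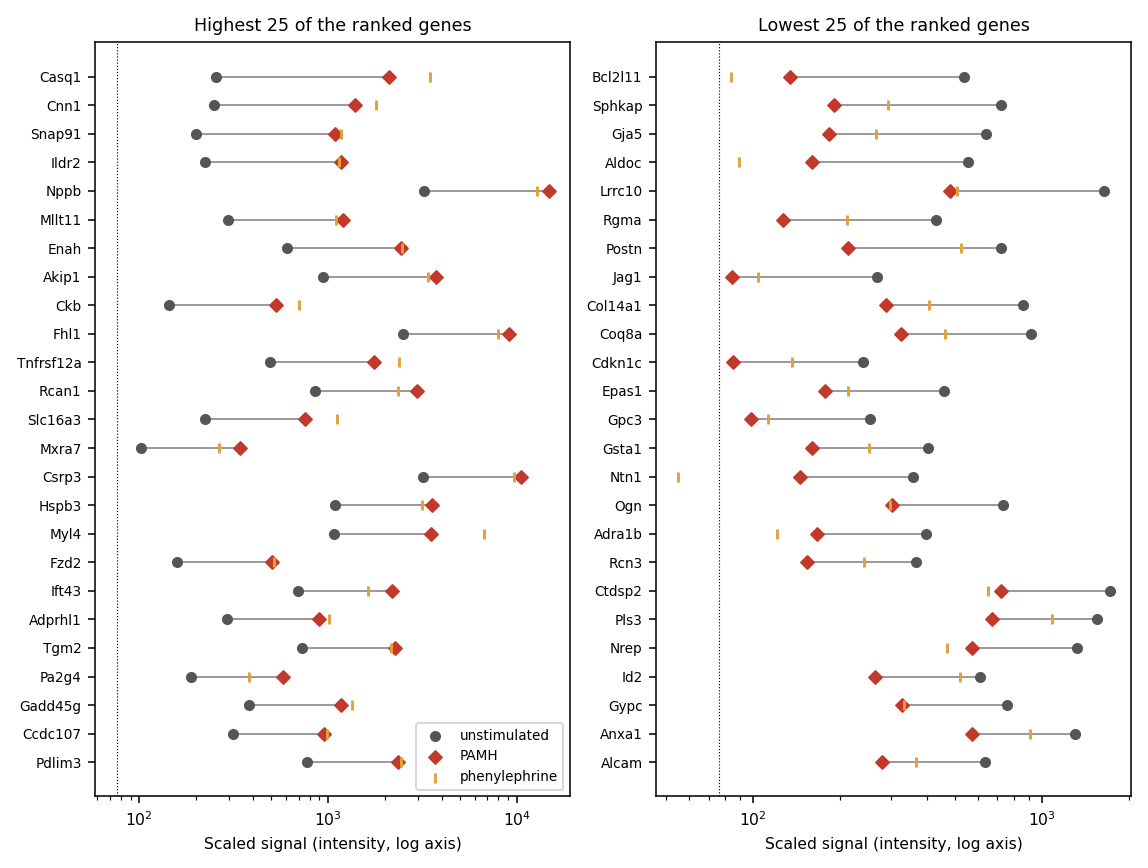
Scaled signals (intensity, log axis) of the 25 highest and 25 lowest ranked genes on the unstimulated (grey circle), PAMH (red diamond) and phenylephrine (orange tick) arrays, 1 array each, with the floor of 76.0 as a dotted line. Casq1, Cnn1 and Myl4 have the phenylephrine tick beyond the PAMH diamond, whereas for Postn and Id2 it lies nearer the unstimulated circle than the diamond does.

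Bcl2l11, the gene of the death-promoting protein Bim, had the lowest ratio of any ranked gene, with 537 on the unstimulated, 134 on the PAMH and 83.5 on the phenylephrine array, 4.01-fold lower with PAMH. Its 2 other probe sets were not above the floor on both arrays. Sphkap, an anchor for protein kinase A in the heart, read 719.8, 191 and 294. Gja5, the connexin of atrial and conduction tissue, read 642, 183 and 267, and its second, dimmer probe set gave -0.44 on the log2 scale. Lrrc10, a leucine-rich repeat protein particular to myocytes, read 1642, 480.3 and 507. In these 4 genes both treated arrays lay below the unstimulated one. Dhrs7c, an enzyme of the sarcoplasmic reticulum, went from 712 to 45.2, below the floor, and was at least 9.37-fold lower with PAMH.

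The rest of the lowest 30 were of mixed function. Rgma, a guidance molecule and bone morphogenetic protein co-receptor, was 3.40-fold lower, and Jag1, a Notch ligand, 3.17-fold lower (268 and 84.4, the latter near the floor). Ntn1, which encodes netrin, read 358 and 145, but a second probe set gave 0.02 on the log2 scale. Gpc3, a surface proteoglycan, was 2.58-fold lower and Alcam, an adhesion molecule, 2.27-fold. Anxa1, an annexin that dampens inflammation, went from 1302 to 569.8, and the actin bundler gene Pls3 from 1555 to 670.5, with a second probe set at -1.15. Phenylephrine gave 912 and 1082 for these 2 genes, between the other arrays. Epas1, a hypoxia-inducible factor, was 2.58-fold lower, Coq8a of coenzyme Q synthesis 2.83-fold, the phosphatase gene Ctdsp2 2.38-fold, the growth hormone receptor gene Ghr 2.19-fold and the selenium carrier gene Selenop 2.26-fold. Rcn3, Nrep, Gypc, Zcchc24, Slc44a2 and Gamt lay between 2.17-fold and 2.38-fold lower.

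Of 13 measured genes of the thick filament 7 were 1.5-fold or more higher and none was as much lower, and their log2 ratios had a median of 0.61. Myh1, whose direction was not settled, is among the 7, and without it 6 of 12 were higher. Myl4, the atrial and fetal light chain, read 1080.3 without stimulus, 3520.0 with PAMH and 6697 with phenylephrine. The ventricular light chains Myl2 (9589.9 and 16828) and Myl3 (7291 and 12414) were 1.75-fold and 1.70-fold higher. Myom1, which crosslinks myosin at the M-band, was 1.86-fold higher and Mybpc3, the cardiac myosin-binding protein C, 1.53-fold, the latter with a phenylephrine log2 ratio of 0.04. Myh7, the β heavy chain, went from 9264 to 17268 and its dimmer probe set from 2900 to 8333. By its brightest probe set Myh7 had a log2 ratio of 0.37 after cyclic loess, below 1.5-fold. Of the thin filament's 13 measured genes, Acta1 and the actin-anchoring gene Nrap (1.79-fold) were past 1.5-fold, and Tnnt2 (0.44), Tpm1 (0.48) and Tnni3 (0.11) were not. These very bright genes depend on the scaling: cyclic loess brought the median of the thick filament genes to 0.28 and that of the thin filament to -0.0090, and left 3 (2 without Myh1) and 1 genes past 1.5-fold.

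LIM and Z-disc proteins were the group with the largest share of higher genes among lists with over 20 measured genes, 20 of 29, with Ablim1 alone lower (log2 ratio -0.59). Of 16 LIM and PDZ-LIM genes 9 were higher, and this number was 9 after cyclic loess also. Pdlim3, which binds α-actinin at the Z-disc, went from 773 to 2347, the focal contact gene Zyx from 504 to 1158 and Lmcd1, which represses GATA factors, from 195 to 453. Csrp1 was 2.21-fold higher, Csrp2 1.73-fold and Pdlim5 2.20-fold, the last with a second probe set at 0.58 on the log2 scale. Pdlim7 went from 499.6 to 1371, but its other probe set, at 138 and 120, had -0.20. Of 13 scaffold and chaperone genes of the Z-disc 11 were higher, a number that was 6 after cyclic loess, which left 15 of all 29 LIM and Z-disc genes. They included Tcap, the titin cap (385 and 952), Des, the muscle intermediate filament desmin (1747 and 3798), Flnc, the muscle filamin (613 and 1239), and Synpo2 (2.24-fold). The α-actinin genes Actn1 (1.73-fold), Actn2 (1.62-fold) and Actn4 (1.66-fold) were past 1.5-fold on equal medians and below it after cyclic loess, at log2 ratios of 0.52, 0.28 and 0.56.

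Calcium handling genes divided. Of 22 measured, 5 were at least 1.5-fold higher and 1 lower, and their median log2 ratio was 0.04. Besides Casq1, its cardiac paralogue Casq2 (3952 and 6843), the membrane tether gene Jph2 (1.56-fold), the sodium-calcium exchanger gene Slc8a1 (2609.9 and 4443) and the channel subunit gene Cacna2d1 (1.64-fold) were higher. After cyclic loess only Casq1 was past 1.5-fold among them. Trdn, which links calsequestrin to the release channel, was 1.55-fold lower, and the calcium binder gene Hrc had -0.56. The release channel gene Ryr2 (-0.16), the L-type channel gene Cacna1c (0.04) and the inhibitor gene Pln (0.15) lay near 0. Cacna1g, a T-type channel, read 252 without stimulus, 245 with PAMH and 116 with phenylephrine, so it was low on the phenylephrine array alone.

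Of 19 measured genes of other ion channels and the sodium pump, 5 were higher by 1.5-fold or more, and none lower. Atp1b1, the β subunit of the sodium pump, went from 2081 to 5376, with a second probe set at 1.12 on the log2 scale, and the pump regulator gene Fxyd1 from 1705 to 3539. The sodium channel subunit gene Scn3b went from 104 to 219. Of 29 potassium channel genes on the array 10 were measured, and Kcnk3 alone was past 1.5-fold, at 92.4, near the floor, and 145. Of 4 measured genes of gap junctions and conduction, Gja5 and Id2, a transcription inhibitor of the conduction system, were lower and Popdc2, a cyclic AMP binding membrane protein, higher (1.94-fold). Id2 read 608, 263 and 519 on the unstimulated, PAMH and phenylephrine arrays, lowest with PAMH. Gja1, the main ventricular connexin, had a log2 ratio of -0.39.

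Sugar and energy genes showed isoform differences rather than 1 direction. Of 16 measured glycolytic enzymes 5 were at least 1.5-fold higher and 3 lower. The phosphofructokinase gene Pfkp went from 1170.1 to 3080.3, whereas the aldolase Aldoc went from 556 to 159.8 and the muscle mutase Pgam2 from 354 to 227. Eno3, the muscle enolase, read 269.6 without stimulus, 137 with PAMH and 1305 with phenylephrine, so the 2 treated arrays lay on opposite sides. Hk1 (1.58-fold), Hk2 (1.58-fold), Pgam1 (1.601-fold) and Aldoa (1.51-fold) were also higher, of which Hk1, Pgam1 and Aldoa were below 1.5-fold after cyclic loess. Of the glucose and lactate transporters Slc16a3 and Slc2a4 (222 and 455) were higher. Of 8 glycogen genes the phosphoglucomutase Pgm1 (598 and 1462), the synthase Gys1 (1.79-fold) and the primer Gyg1 (1.73-fold) were higher, and of the creatine genes Gatm, which starts creatine synthesis, was 2.21-fold higher and Gamt, which completes it, 2.17-fold lower.

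In mitochondria few genes passed 1.5-fold. Of 25 measured genes of the tricarboxylic acid cycle and pyruvate use 3 were higher: Idh3a, a subunit of isocitrate dehydrogenase (397 and 803), the pyruvate carrier gene Mpc1 (1.62-fold) and Pdhx of pyruvate dehydrogenase (1.54-fold). The median of this list, 0.29, was 0.0042 after cyclic loess and -0.040 after quantile normalization. Of 26 measured genes of mitochondrial import, fusion and carriers, all had a ratio above 0 and 3 passed 1.5-fold, among them the import gene Timm17a (1159.5 and 2036). The median of all measured genes was also above 0, at 0.10. After cyclic loess and after quantile normalization 1 of the 26 passed 1.5-fold, and their median of 0.40 became 0.18 and 0.20. Of 26 genes of fatty acid uptake and oxidation 4 were higher and 1 lower. The dehydrogenase Acadm (1.70-fold) and the muscle carnitine transferase Cpt1b (1.63-fold) were higher, and Hadh of the same spiral went from 982 to 503. G0s2, an inhibitor of fat breakdown, read 1905 without stimulus, 1242 with PAMH and 628 with phenylephrine.

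Lipid synthesis genes were more often higher. Of 18 measured enzymes of cholesterol synthesis 10 were 1.5-fold or more higher and none was as much lower, and their log2 ratios had a median of 0.66, while 8 were past 1.5-fold after cyclic loess. Higher enzymes of the mevalonate path included Pmvk (173 and 361), Idi1 (848 and 1601) and Fdps (2148 and 5429). Sqle (1.90-fold) and Fdft1 (1.77-fold) stand at the entry to sterols, and Msmo1 (1.71-fold) and Nsdhl (1.53-fold) remove methyl groups later. Tm7sf2, a sterol reductase, read 158, 441 and 231 on the unstimulated, PAMH and phenylephrine arrays, highest with PAMH. Of 7 measured genes of sterol regulation and transport, the exporter Abcg1 alone was past 1.5-fold (1.61-fold). Of 11 genes that make and desaturate fatty acids, 5 were higher and none lower. The fatty acid synthase Fasn went from 917 to 2141, the desaturases Scd from 507 to 991 and Scd2 from 3809.8 to 6921, and Fads2 and Elovl6 were 1.71-fold and 1.55-fold higher. A core of the sterol regulatory element (TCACNCCAC, either strand) was found in 0 of the 7 promoters available for the higher cholesterol genes, against 1.0% of all promoters, which says only that these letters are not in those windows.

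Of 26 measured genes for serine, glutamine and polyamines 5 were at least 1.5-fold lower and 1 higher, with a median log2 ratio of -0.03 and 12 genes above 0. The median of all measured genes was 0.10. Phgdh and Psat1, the first enzymes of serine synthesis, went from 492 to 246 and from 780.4 to 419. Shmt2, the mitochondrial enzyme that uses serine, went from 490.3 to 301, and the amino acid transporter genes Slc1a5 and Slc7a3 were 1.89-fold and 1.52-fold lower. On the phenylephrine array Phgdh read 439 and Shmt2 601, close to or above the unstimulated signal. Sat1, which acetylates polyamines, was the higher one, at 1.68-fold. Of 19 nucleotide synthesis genes Hprt1 (1.62-fold) and Nme1 (1.505-fold) were higher and none lower.

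All 7 small heat shock protein genes, chaperones abundant in muscle, were measured and at least 1.5-fold higher. Hspb3 went from 1087 to 3553, Hspb6 from 1285 to 2856 and Hspb1 from 2084 to 4025, and these 3 were the ones past 1.5-fold after cyclic loess. Of 14 other cytosolic chaperone genes Dnajb5 (135 and 298) and Dnajb1 (1.57-fold) were higher, and their median log2 ratio was 0.15. In the endoplasmic reticulum none of 41 measured genes was 1.5-fold higher, 3 were lower and 10 had a ratio above 0. Their median log2 ratio was -0.15, against 0.10 for all measured genes. Lower were Trib3, a pseudokinase induced by stress (341 and 160.3), Dnajb9, a co-chaperone (584 and 304), and Edem1, which sends misfolded proteins to breakdown (347 and 202). The folding enzymes Pdia6 (-0.52) and Pdia4 (-0.49) were next. After quantile normalization and after cyclic loess 7 of the 41 were lower, against 376 of 6555 and 363 of 6557 of all measured genes.

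Glutathione and antioxidant genes held both directions. Of 15 measured glutathione genes 3 were lower and 2 higher. The transferases Gsta1 (402 and 159.9) and Gstm1 (245 and 119) and the membrane-bound Mgst1 (646 and 329.8) were lower. Gclc, the catalytic subunit of glutathione synthesis, read 237 without stimulus, 425 with PAMH and 240.1 with phenylephrine. A second Gclc probe set read 184, 311 and 266 in that order, so the phenylephrine signal differed between probe sets. Mgst3 was 1.71-fold higher with PAMH. Of 23 antioxidant and metal genes Tfrc, the transferrin receptor, went from 1356 to 3348 and the heme oxygenase gene Hmox1 was 1.57-fold lower.

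Matrix genes were more often lower than higher with PAMH. Of 80 matrix genes on the array 62 were measured on both arrays, 15 of them at least 1.5-fold lower and 3 higher. Postn, the matrix protein periostin, read 721 without stimulus, 212 with PAMH and 525 with phenylephrine. The fibrillar collagen Col3a1 read 2773, 1327 and 2011 in the same order. For both the PAMH array was the lowest of the 3. Of 13 collagens 4 were lower, the others being Col14a1 (857 and 289, with a second probe set at -0.49 on the log2 scale), Col6a1 (311 and 176) and Col1a1 (1977 and 1264). A second probe set of Col1a1 read 1317 and 1284, a log2 ratio of -0.04, and Col1a2 had -0.28.

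Of 25 other matrix proteins 10 were lower and 2 higher. Lama2, the laminin chain of muscle basement membrane, went from 1551 to 715, the proteoglycan Ogn from 732 to 301 and the fibrillin Fbn1 from 1110.3 to 582. Of the 3 other probe sets of Ogn 1 had a log2 ratio of -1.51 and 2 were below the floor with PAMH. Lumican, encoded by Lum (2.06-fold lower), elastin, encoded by Eln (1.98-fold), and decorin, encoded by Dcn (1.85-fold), had PAMH signals of 111, 107 and 90.3, near the floor, and so did Tnc (92.9), Spon2 (84.9) and the basement membrane proteoglycan Agrn (97.2), each under 2-fold lower. The laminin chains Lama4 (463 and 864) and Lama5 (261 and 434) and the basement membrane collagen Col15a1 (1.504-fold) were higher. None of 13 enzymes that fold and crosslink collagen passed 1.5-fold, and of 11 matrix proteases and inhibitors Serpinf1 alone did (1.52-fold lower, 77.8 with PAMH).

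**Figure D4:**
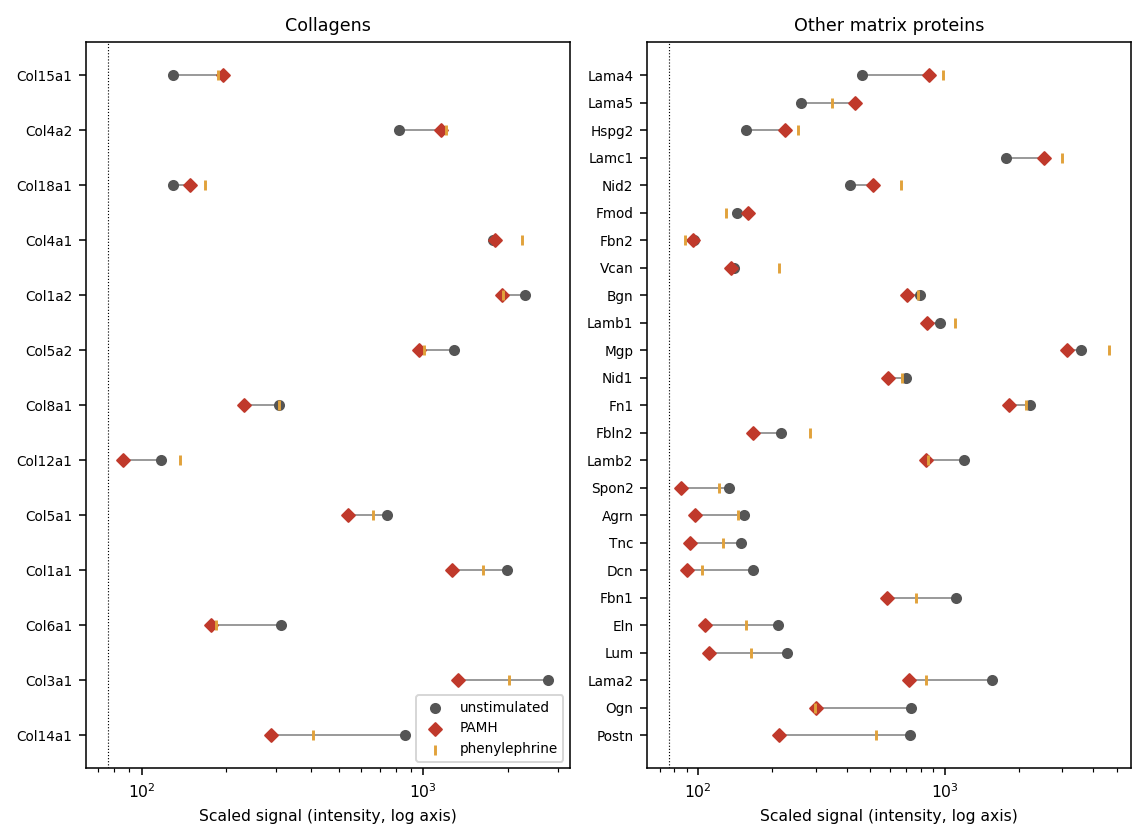
Scaled signals (intensity, log axis) of all measured collagens and other matrix proteins on the unstimulated (grey circle), PAMH (red diamond) and phenylephrine (orange tick) arrays, 1 array each, ordered by the PAMH ratio. Postn, Ogn, Lama2 and Col14a1 are lowest, and the laminin genes Lama4 and Lama5 are at the top with PAMH above unstimulated.

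Markers of fibroblasts moved with these genes. Of the fibroblast markers 9 were measured, 6 of them lower by 1.5-fold or more and none higher, and the summed signal of the 11 on the array was 13582 without stimulus and 9558 with PAMH. Postn, Col3a1, Lum, Fbn1, Dcn and Col1a1 belong to both lists, so the marker count is not separate from the matrix count. The defining markers Pdgfra (104 and 53.7) and Tcf21 (78.2 and 44.0) lay below the floor with PAMH, Vim was even (-0.06) and Thy1 had 0.21 by its brightest probe set, while its other one went from 120 to 34.2, below the floor. Fewer fibroblasts and less RNA per fibroblast cannot be told apart in such cultures, and the part of cell makeup in the matrix result was not tested. Smooth muscle markers were mixed, with 5 of 7 above 0. Cnn1, Acta2 (752 and 2151), Des and Myl9 (1.56-fold) were higher and Myh11, the smooth muscle myosin, lower (278 and 178). After cyclic loess 3 of the 7 were past 1.5-fold higher, and Myl9 had a log2 ratio of 0.28. Of the myocyte markers 3 of 10 were higher, and Mb, which encodes myoglobin, was lower (3088 and 1947). The median of these markers, 0.37, was -0.13 after cyclic loess.

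Growth factor genes gave 11 higher and 6 lower members of 59 measured, 49 more being present but below the floor on 1 or both arrays. Tgfb2, a transforming growth factor, went from 287 to 817, with a second probe set at 1.64 on the log2 scale. Bmp7 was 1.89-fold higher and Igfbp7, a secreted binding protein, went from 1085 to 2370.2. Inhibin α, encoded by Inha, read 91.3 without stimulus, 150.3 with PAMH and 758 with phenylephrine, and Inhba 78.0, 119.5 and 217. Both genes were higher with phenylephrine than with PAMH, as was Id1, a target of bone morphogenetic proteins (190.0, 281 and 614). Fstl3, a binder of activin, went from 77.0 to 154. The unstimulated signals of Inha, Inhba and Fstl3 lay near the floor. On the lower side stood the chemokine receptor Cxcr4 (226 and 105) and its ligand Cxcl12 (197 and 121), Csf1 (1.59-fold), Vegfc (1.73-fold) and Igfbp4 (1.80-fold), most with PAMH signals near the floor.

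Of 23 measured genes of guidance, Notch and Wnt signalling 6 were lower and 4 higher. Besides Jag1, the Notch target Hes1 (378 and 244) was lower and its relative Hes5 (91.1, near the floor, and 170.1) higher. The Wnt receptors went opposite ways, with Fzd1 at 1709.6 and 1031 and Fzd2 higher. Sfrp1, a secreted Wnt binder, was 1.96-fold higher and Ccn4, a Wnt target, 1.63-fold lower. Sema3c, a secreted guidance protein, read 515, 896 and 1767 on the unstimulated, PAMH and phenylephrine arrays.

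Genes of mitosis were more often higher than lower. Of 28 measured cyclins, kinases and mitotic genes 13 were 1.5-fold or more higher and none was as much lower, and their log2 ratios had a median of 0.50, while 10 were past 1.5-fold after cyclic loess. Cks2, a subunit of cyclin-dependent kinases, went from 433 to 905, the topoisomerase Top2a from 346 to 639, and Cdk1, the mitotic kinase, from 500.1 to 793. Ccnb1, Ube2c, Plk1, Cdc20 and Kif20a, which act from entry into mitosis to its exit, lay between 1.68-fold and 1.86-fold higher. Of 22 DNA replication genes 3 were higher, the helicase subunits Mcm3 (1.57-fold) and Mcm6 (1.65-fold) and Dut (1.54-fold), and 21 had a ratio above 0. Their median log2 ratio was 0.27, against 0.10 for all measured genes, and 2 were past 1.5-fold after cyclic loess. Inhibitors went both ways: Cdkn1c, the inhibitor p57, went from 239.8 to 85.01 and Sesn1 from 172 to 94.2, whereas Gadd45g and Gadd45a (1.68-fold) were higher. The arrays do not show which cell type these genes came from.

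Of 20 measured genes of the Bcl2 family and caspases, Bok (398 and 844, with a second probe set at 0.81 on the log2 scale) and Casp6 (1.68-fold) were higher and Bcl2l11 and Casp4 (249 and 142) lower. In the phosphoinositide 3-kinase and mTOR list 3 of 23 measured genes were lower. They were Pik3ip1, an inhibitor of the kinase (575 and 329.9), Ddit4, an inhibitor of mTOR (288 and 149.6), and Foxo4 (1.53-fold), whereas Pik3ca was 1.58-fold higher by its brightest probe set and had a log2 ratio of 0.03 by another. Of 30 measured genes of protein breakdown Trim54, a ring finger protein of the sarcomere, and the protease gene Ctsc were lower and Becn1 of autophagy higher, all by less than 2-fold. None of 26 genes of ribosome biogenesis passed 1.5-fold, and of 31 translation factors Eef1a2, the muscle form of an elongation factor, went from 452 to 981 and Eef1d was 1.53-fold higher. Eef2k, which inhibits elongation, was 1.93-fold lower by its brightest probe set and had a log2 ratio of -0.03 by another.

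The cytoskeleton list of 82 measured genes held 21 higher and 4 lower. Among tubulins and intermediate filaments Tubb6 (325 and 799.8), Tuba4a (1023 and 1965), Tubb4b (2009 and 3840.4), Synm (1.90-fold) and Krt18 (85.8 and 215) were higher. Krt18 started near the floor. Of the cortical actin genes Cfl2, the muscle cofilin, went from 1841 to 4794 and Msn, which links actin to the membrane, from 1199 to 2243. Lasp1 (1.63-fold) and the enteric actin Actg2 (674 and 328) were lower. Of 33 integrin and junction genes Itgb1bp2, the muscle integrin partner melusin, went from 645 to 1666, Itga6 from 170.2 to 369 and the kinase-like Ilk from 1179 to 2132. The caveolin gene Cav1 went from 986 to 568. Cdh13 was 2.08-fold lower by 1 probe set and had log2 ratios of -0.50 and -0.09 by others. After cyclic loess the 82 genes held 11 higher and 8 lower.

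In cyclic nucleotide signalling 6 of 31 measured genes were higher and 1 lower. Among anchors and subunits of protein kinase A, Prkar2b (269 and 445), Akap6 (143 and 235) and Pakap (1251 and 2058) were higher, beside Akip1 and against Sphkap. The phosphodiesterase Pde4b read 299 without stimulus, 182 with PAMH and 424 with phenylephrine, on opposite sides of the unstimulated signal. Of 14 measured genes of the Ras and Rap family 5 were higher and none lower, among them Rasl11b (412 and 824), Rras (1.83-fold) and Rrad, a GTPase that restrains calcium channels. Rrad read 557, 945 and 446 on the unstimulated, PAMH and phenylephrine arrays. Nras was 1.75-fold higher by 1 probe set and had a log2 ratio of 0.01 by the other. The phenylephrine and PAMH ratios share the unstimulated array, and the 2 compounds were used at different doses. Where the 2 treated arrays are said to differ, this describes signals on single arrays. A difference between the compounds was not tested.

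The choice of scaling moved groups of bright genes more than groups of dim ones. On the deposited intensities the split at 2-fold was 75 higher and 92 lower genes, after quantile normalization 86 and 74 and after cyclic loess 85 and 70, against 134 and 52 on equal medians. The share of higher genes among those past 2-fold was thus 72.0% on equal medians, 44.9% as deposited and 54.8% after cyclic loess. The fetal, LIM, Z-disc, small heat shock, cholesterol and mitotic lists kept a positive median under these 4 scalings, and the collagen, other matrix and endoplasmic reticulum lists a negative one. Over the 36 whole lists, cell type markers aside, the median was above 0 under all 4 scalings in 12, below 0 under all 4 in 8, and on both sides in 16. The thin filament, tricarboxylic acid cycle, calcineurin, calcium handling, glycogen and creatine, MAP kinase and cytoskeleton lists were among the 16.

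**Figure D5:**
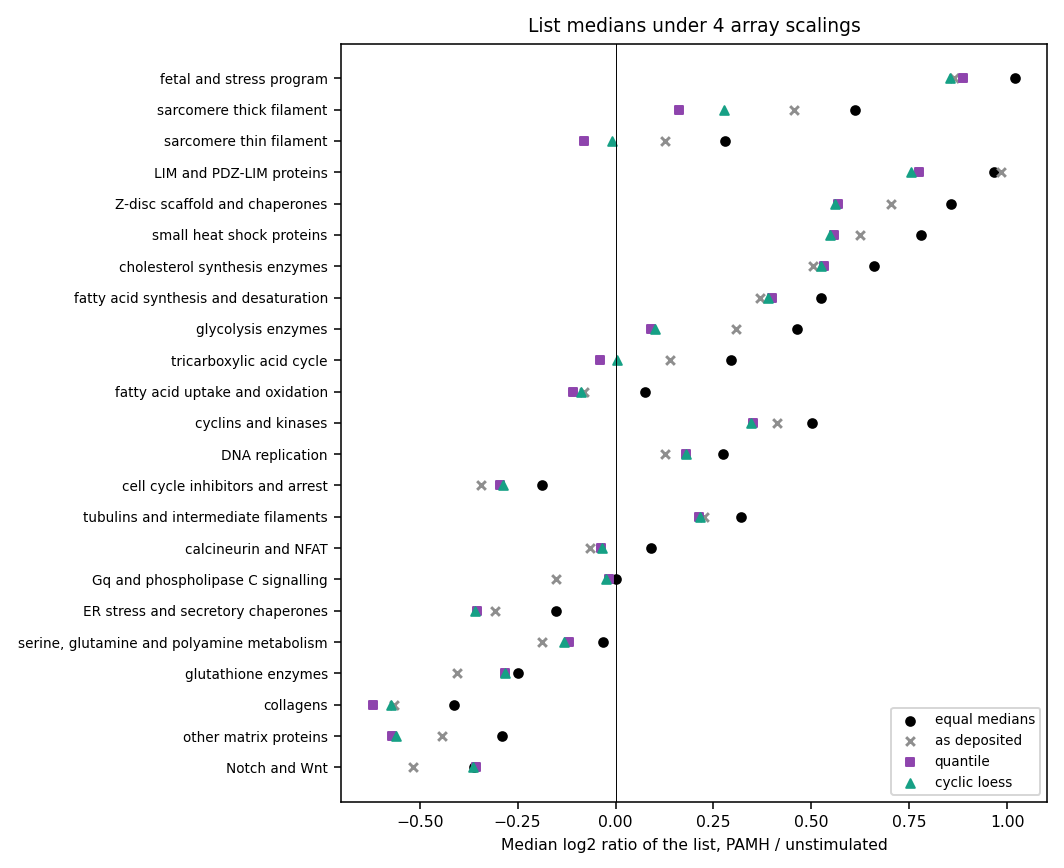
Median log2 ratio of PAMH over unstimulated for 23 gene lists or parts of lists on equal array medians (black circle), on intensities as deposited (grey cross), after quantile normalization (purple square) and after cyclic loess (green triangle). The fetal list stays right of 0.8 throughout, while the thin filament genes go from 0.28 on equal medians to -0.079 after quantile normalization.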

How the data were processed

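The authors deposited 1 linear signal intensity for each probe set of an array. The software that made them is not given in the sources used here, and no depth or detection call was used. Symbols came from the platform annotation, updated through the gene identifier in a RefSeq gene table: 12783 of 15866 non-control probe sets had 1 symbol, 312 several and 2771 none. Probe sets without a single symbol were left out of gene comparisons. Arrays were scaled to equal medians over non-control probe sets, and the floor was set at percentile 40 of scaled signals, all 3 arrays pooled. A gene was represented by its brightest probe set. Genes got a bound, brighter signal divided by floor, where the dimmer signal missed the floor and the brighter passed percentile 75. With 1 array per group no test was run, and genes were counted at 2-fold and 1.5-fold. As a yardstick without culture variation, log2 ratios of probe sets within a gene had an SD of 0.29 over 867 genes. The steps were tested on simulated data with little noise, where changes were placed only in bright genes with 1 probe set. That test checked the computation and does not show how well dim genes are measured. The members, gene lists and named genes were chosen with earlier results of these data known. Named genes were the 30 highest and 30 lowest ratios above percentile 60 of mean signal, bounded genes, and list members, first those past 1.5-fold. The 9 alternatives were the deposited intensities, scaling to percentile 75, quantile and cyclic loess normalization, an offset of 50, floors at percentiles 20 and 60, the mean of a gene's probe sets, and genes with 1 probe set. Python 3.11.15, numpy 2.4.6, pandas 2.3.3, matplotlib 3.10.9, R 4.3.3 and limma 3.58.1 were used.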

Additional observations from a re-analysis of the deposited data

How the results depend on the processing

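Of 286 ranked genes and list members with a ratio past 1.5-fold, not all of them named here, 170 were past it under every alternative that gave a value. Not every alternative could change every ratio. Another floor can only keep or drop a ratio, and a gene with 1 probe set is unaffected by the choice among probe sets. After quantile normalization 219 of 286 were past 1.5-fold, after cyclic loess 218 and with an offset of 50, which lowers dim ratios, 241. Each kept its direction under every alternative that gave a value, except Myh1, at -0.63 after quantile normalization. Genes at least 2-fold higher numbered 134, against 75 without scaling, 86 after quantile normalization, 85 after cyclic loess and 204 with the floor at percentile 20. Genes at least 2-fold lower numbered 52, against 92 without scaling, 30 with the offset, 129 with the floor at percentile 20 and 26 at percentile 60. At 1.5-fold, 610 higher genes became 350 without scaling, and 273 lower genes became 515 without scaling, 158 with the offset, and 543 and 139 with the lower and the higher floor. Among medians of whole lists and of cell type marker groups, those that moved by more than the SD between probe sets did so after quantile normalization and cyclic loess, at 0.16 and 0.28 for the thick filament, -0.079 and -0.0090 for the thin filament, 0.094 and 0.11 for glycolysis and glucose uptake, -0.040 and 0.0042 for the tricarboxylic acid cycle, -0.20 and -0.13 for cardiomyocyte markers, and 0.28 and 0.28 for smooth muscle markers. Parts of lists were not held to this measure, and some moved as far, such as the natriuretic peptides, from 1.79 to 1.29 after both, and the sarcoplasmic reticulum genes, from 0.15 to -0.22 and -0.24. Leaving out Myh1, chosen after seeing the data, changed the thick filament count from 7 to 6. The cause was not tested. A floor at percentile 60 left fewer genes tested (4518), and one at percentile 20 more (8392). Signals near the floor and the single array per group limit all ratios. No paired analysis was possible because each group had 1 array.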

Other observations

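Probe sets without a single gene symbol were not used in the gene comparisons. Of 3083 such probe sets 1360 lay above the floor on both arrays, with 13 of these higher and 8 lower by 2-fold or more on the PAMH array. Over all non-control probe sets, named or not, 8921 lay above the floor on both arrays, of which 177 were higher and 70 lower by 2-fold or more.

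Among genes 2-fold or more apart, 45 higher and 2 lower ones fell in the brightest of equal-sized signal classes, with a mean signal above 1151, and 6 higher and 7 lower ones in the class with mean signals from 223 to 277.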
